A study of Canis lupus familiaris with 8 samples.

Results

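The 4 integrin subunit genes ITGB2, ITGAM, ITGA5 and ITGA2B were described in anterior mitral valve leaflets, 1 from each of 8 dogs, in all probe sets that the platform annotation gives to them. They were 6 probe sets of 23836 on the array, array controls left out, with 1 for ITGB2, 1 for ITGA2B and 2 each for ITGAM and ITGA5. The set was chosen by its signals in affected against control leaflets, in the same arrays used here, so the differences between groups are a description, with no test, and support nothing by themselves. Protein and promoter sequences were not used here.

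Integrins are receptors of the cell surface, each built from 1 alpha and 1 beta subunit, that hold cells to the matrix or to other cells and pass signals in both directions across the membrane. ITGB2 is the beta chain shared by the integrins of leukocytes, and with ITGAM it forms the receptor (Mac-1, or CR3) by which monocytes, macrophages and neutrophils bind ICAM1, fibrinogen and complement fragments. ITGA5 pairs with ITGB1 in the main fibronectin receptor of fibroblasts, smooth muscle and endothelium. ITGA2B pairs with ITGB3 in the fibrinogen receptor of platelets.

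The control group was 4 beagle crosses. The affected group had degenerative mitral valve disease (DMVD), a thickening and distortion of the leaflets, and held Miniature poodles (affected 2 and affected 4), a Dachshund (affected 3) and a Lhasa apso (affected 1). Disease and breed changed together and cannot be told apart, and the labels used here give no treatment. Each dog gave 1 array of frozen leaflet tissue, so fewer cells of a type and less RNA per cell cannot be told apart either.

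The deposited values are MAS5 signals, a linear brightness per probe set, and all arrays had a trimmed mean signal of 500.1. Array medians ran from 124 to 192. Signals under 34.2, the 20th percentile of all values, were set to that floor before taking log2. A probe set entered the test when at least 4 of 8 arrays lay above their own 40th percentile, which 14705 probe sets did. With limma's moderated test and Benjamini-Hochberg adjustment, 0 of the 14705 passed an adjusted p of 0.05 (0%), the lowest adjusted p being 0.238. Without adjustment, p was under 0.05 for 591 with the affected dogs higher (4.02%) and for 560 with the controls higher (3.81%). The groups did not overlap for 2.35% of tested probe sets with affected dogs higher and for 2.31% with affected dogs lower. Markers of fibroblasts and interstitial cells such as VIM, COL1A2 and DCN passed the filter, and so did 13 markers of heart muscle, whose mean log2 signal ran from 11.38 to 13.86 in controls and from 10.28 to 13.29 in affected dogs. Control 2 stood apart: it had the highest heart muscle mean and the lowest mean for fibroblast and interstitial markers (11.43, other controls 13.39 to 13.99) and for macrophage markers (6.48, other controls 8.77 to 9.99). The part of this array in the results was read by leaving it out.

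ITGB2, the leukocyte beta chain, was higher in every affected leaflet than in every control. Its signal was 409 in control 1, 151 in control 2, 210 in control 3 and 307 in control 4, against 768, 575, 670 and 919 in affected 1 to 4. Control 2 was the lowest dog and affected 4 the highest. The lowest affected dog was at 1.41 times the highest control. The mean log2 signal of the 4 controls was 7.97 ± 0.63 (SD, n = 4) and that of the 4 affected dogs 9.50 ± 0.29 (SD, n = 4), a difference of 1.52 ± 0.33 (log2, limma SE), or 2.87-fold. Controls were the more scattered group, with a 2.70-fold range against 1.60-fold in affected dogs. When each array was centred on its own median in place of the trimmed mean, the 2 groups of ITGB2 overlapped.

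ITGAM, the alpha chain that pairs with ITGB2, gave a like order of dogs in its brighter probe set. The signal was 184, 87.5, 156 and 168 in control 1 to 4 and 333, 289, 313 and 635 in affected 1 to 4. As for ITGB2, control 2 was lowest, control 1 was the highest control, affected 2 the lowest affected dog and affected 4 the highest, and the groups did not overlap. Affected 4 stood apart, with a signal 2.20 times that of affected 2. The difference was 1.38 ± 0.35 (log2, limma SE), or 2.60-fold, and the lowest affected dog was 1.57 times the highest control.

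The other ITGAM probe set was dim and did not repeat this. Its signals were 37.2, 58.4, 71.6 and 74.4 in controls and 78.7, 153, 41.4 and 45.8 in affected dogs, and 1 of 8 arrays lay above its own 40th percentile, so the probe set did not pass the filter. Affected 4, the highest dog in the brighter probe set, was among the lowest here. In a fit of all probe sets without the filter, its difference was 0.24 ± 0.46 (log2, limma SE), with overlapping groups, and it was -0.14 without affected 2. Statements on ITGAM therefore rest on 1 probe set.

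**Figure D1:**
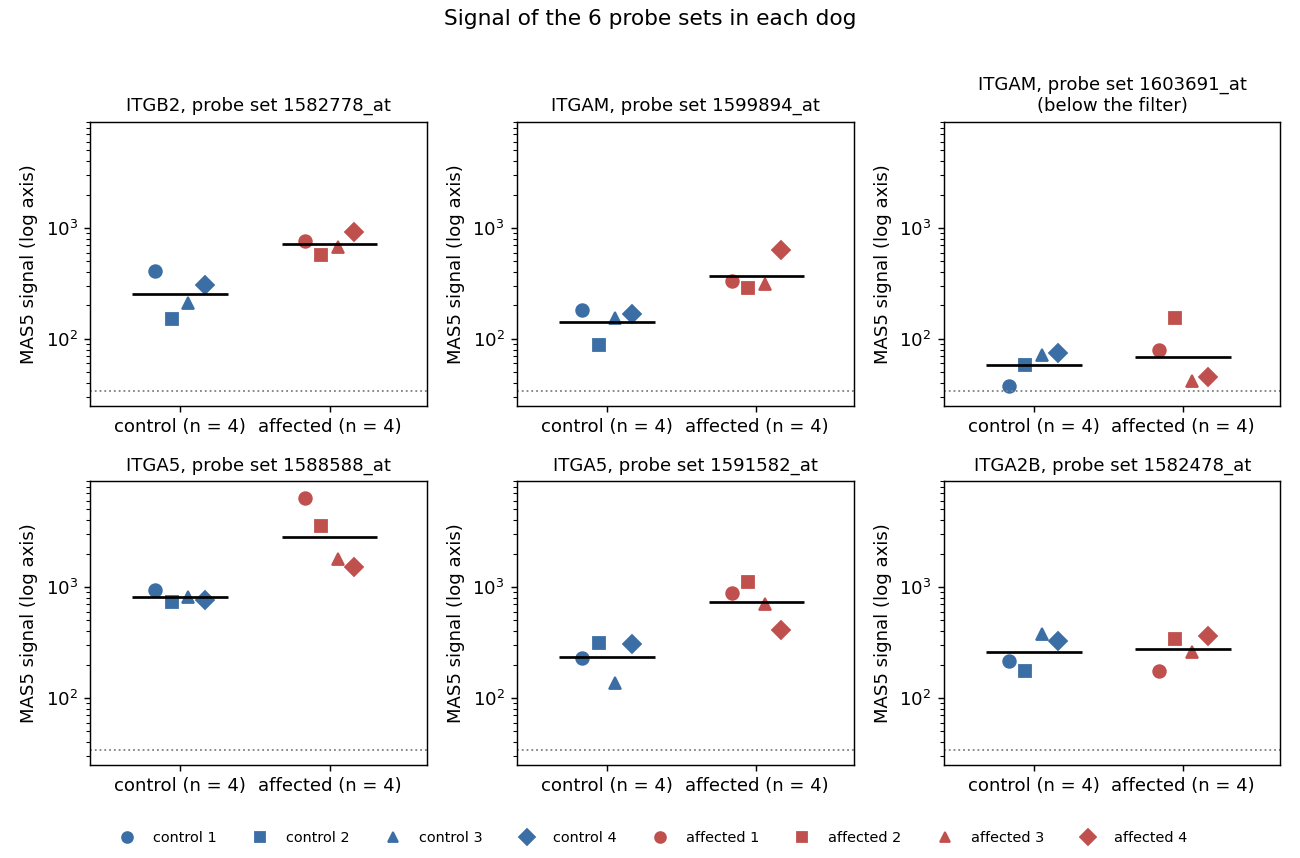
MAS5 signal (log axis) of the 6 probe sets of ITGB2, ITGAM, ITGA5 and ITGA2B in 4 control and 4 affected dogs, 1 symbol per dog; black lines are the means of log2 signal and the dotted line is the floor at 34.2. The groups are apart for ITGB2, the brighter ITGAM probe set and both of ITGA5, and overlap for ITGA2B and the dim ITGAM probe set.

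ITGA5, the alpha chain of the fibronectin receptor, showed the largest difference of the 4 genes, and in both of its probe sets each affected dog was above each control. In the brighter one the controls lay close together, at signals of 947, 730, 811 and 764, a 1.30-fold range. Affected dogs were spread over a 4.12-fold range, at 6289, 3580, 1777 and 1526 in affected 1 to 4. Controls had a mean log2 signal of 9.66 ± 0.16 (SD, n = 4) and affected dogs one of 11.45 ± 0.95 (SD, n = 4). The difference was 1.79 ± 0.41 (log2, limma SE), or 3.46-fold, and the lowest affected dog was 1.61 times the highest control.

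In the second ITGA5 probe set the signals were 228, 316, 137 and 306 in controls and 888, 1119, 698 and 413 in affected dogs. The difference was 1.64 ± 0.38 (log2, limma SE), or 3.12-fold. Affected 1 and affected 2 were the highest dogs and affected 4 the lowest affected dog in both probe sets, although affected 1 led in the first and affected 2 in the second. This order is not that of ITGB2 and ITGAM, where affected 4 was the highest dog and affected 2 the lowest affected one. Over the 8 dogs, deviations from the group means of the brightest probe set per gene correlated at r = 0.82 between ITGB2 and ITGAM. They correlated at -0.0015 between ITGB2 and ITGA5 and at -0.32 between ITGAM and ITGA5. The second ITGA5 probe set was not part of these values, which describe 8 arrays, with no test.

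ITGA2B, the platelet alpha chain, had the smallest difference of the 4 genes. Its signal was 216, 175, 379 and 328 in control 1 to 4 and 176, 341, 258 and 361 in affected 1 to 4. Control 2 and affected 1 were the lowest dogs, control 3 the highest, and the groups overlapped over nearly their whole range. The difference was 0.063 ± 0.34 (log2, limma SE), or 1.04-fold, and its sign turned under 6 of 18 alternatives, median centring, array weights and leaving out control 1, control 2, affected 2 or affected 4.

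In all, 5 of the 6 probe sets passed the filter and 4 of them had groups that did not overlap, with affected dogs higher. The contrast chose the genes, so nothing is read from that count beside the 2.35% of all tested probe sets. Without any 1 dog, the difference of ITGB2 ran from 1.28 (without control 2) to 1.76 (without control 1). Without control 2 the brighter ITGAM probe set was at 1.14, those of ITGA5 at 1.74 and 1.79 and ITGA2B at -0.13. The difference of the brighter ITGAM probe set ran from 1.12 (without affected 4) upward, and those of ITGA5 from 1.40 (without affected 1) to 2.08 (without affected 4) and from 1.38 to 1.92.

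**Figure D2:**
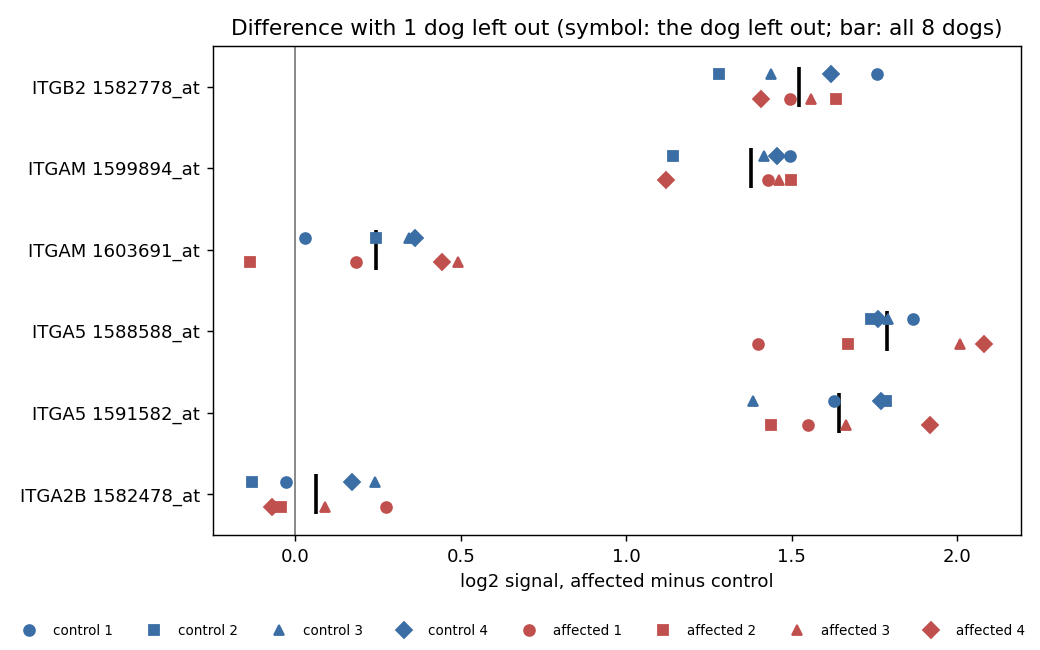
Difference in log2 signal (affected minus control) of each probe set with all 8 dogs (black bar) and with 1 dog left out (symbols, coloured by the group of that dog). ITGB2, the brighter ITGAM probe set and both ITGA5 probe sets stay between 1.12 and 2.08, while ITGA2B lies between -0.13 and 0.28 and the dim ITGAM probe set between -0.14 and 0.49.

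The beta chains that pair with ITGA5 and ITGA2B had overlapping groups. ITGB1, which pairs with ITGA5 and with many other alpha chains, had signals of 4389, 3475, 2533 and 4000 in controls and 1473, 2210, 4308 and 3788 in affected 1 to 4. Affected 1 and affected 2, the dogs with the highest ITGA5, had the lowest ITGB1 in this probe set. Its difference was -0.39 ± 0.36 (log2, limma SE) with an adjusted p of 0.782, and it was -0.094 without affected 1 and -0.61 without affected 3. The other ITGB1 probe set differed by -0.25 ± 0.34. There affected 1 was again lowest, but control 3 (848) lay below affected 2 (921). ITGB3, the partner of ITGA2B, was below the filter. Its signal was under the floor in control 2, control 3 and affected 2 and at most 200 in affected 4, the highest dog.

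Of 26 integrin subunits, 16 were named on the array and 13 of these were tested in their brightest probe set. The other leukocyte alpha chains ITGAL, ITGAX and ITGAD and the leukocyte chain ITGA4 were among those with no probe set of that symbol, so ITGAM was the one measured alpha partner of ITGB2. Without the 4 member genes, 7 of 9 tested subunits had a higher mean log2 signal in affected dogs, beside 50.5% of all tested probe sets, with a median log2 difference of 0.21 beside 0.0065 over all tested probe sets. None of the 9 passed limma at an adjusted p of 0.05. An unadjusted p under 0.05 was found for 2, both higher in affected dogs, beside 4.02% of all tested probe sets in that direction. Under quantile normalization and under median centring 6 of the 9 were higher, and array weights or leaving out control 1, control 2, affected 2 or affected 4 left 5. The median ran from 0.070 without affected 2 to 0.49 without affected 3.

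The 2 subunits at an unadjusted p under 0.05 were ITGB7 and ITGB4. ITGB7, a beta chain of lymphocytes that binds mucosal and endothelial ligands, had signals of 158, 234, 481 and 241 in controls and 1138, 438, 263 and 1103 in affected dogs. Affected 1 and affected 4 were far above the rest and the other affected dogs lay within the control range. Its difference was 1.27 ± 0.51 (log2, limma SE; adjusted p = 0.610). ITGB4, a chain of the laminin receptor of epithelia, was at 848, 288, 857 and 608 in controls and 1937, 1060, 1189 and 1125 in affected dogs, without overlap. Its difference was 1.11 ± 0.38 (log2, limma SE, adjusted p = 0.545), and 0.76 without control 2, the lowest dog.

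The groups overlapped for the remaining subunits other than ITGAE, which was lower in every affected dog but below the filter. ITGAV, which binds vitronectin and fibronectin, differed by 0.040 ± 0.26 (log2, limma SE) and turned negative under median centring, array weights (-0.048) and without control 2, affected 3 or affected 4. ITGB5, a partner of ITGAV, differed by 0.21 ± 0.37, by -0.060 without control 2 and by -0.038 under array weights. ITGB8, another partner of ITGAV, differed by 0.085 ± 0.44 and turned negative under quantile normalization and without control 1, affected 2 or affected 4. For the laminin-binding chain ITGA6 the difference was -0.25 ± 0.31, with -0.42 and -0.11 in its other probe sets, and the first was -0.018 without affected 2 and -0.50 without affected 3. ITGA7, a laminin receptor of muscle, differed by 0.69 ± 0.58 and ITGB6, a chain of epithelia, by 0.22 ± 0.72, and in both control 2 was far above the other controls. ITGA7 ran from 0.36 without affected 2 to 1.22 without affected 3. ITGB6 ran from -0.16 without affected 2 to 0.94 without control 2 and was also negative without control 1 or control 3. Below the filter, ITGAE, a chain of lymphocytes within epithelia, differed by -0.87 ± 0.32, with affected 1 under the floor (-0.21 when the floor was raised to the 40th percentile), and ITGA11, a collagen receptor chain, by -0.13 ± 0.23 in its brightest probe set.

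**Figure D3:**
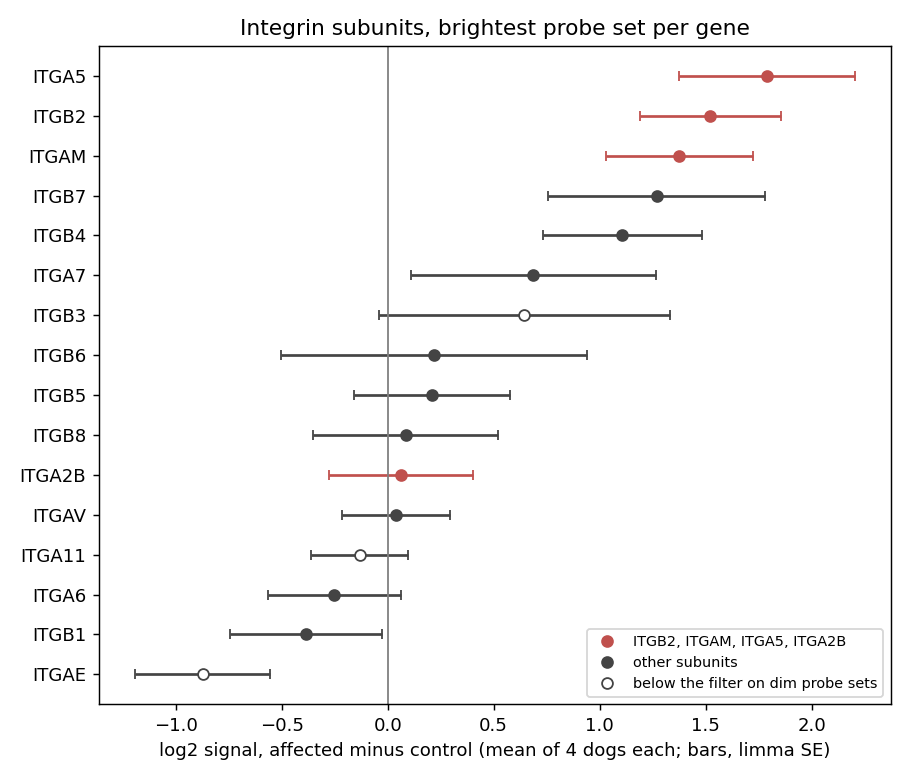
Difference in log2 signal (affected minus control, 4 dogs each) of the 16 integrin subunits named on the array, brightest probe set per gene, with limma standard errors; red marks ITGB2, ITGAM, ITGA5 and ITGA2B and open symbols mark probe sets below the filter. ITGA5, ITGB2 and ITGAM, which were chosen on this contrast, lie between 1.38 and 1.79, and ITGAE is lowest at -0.87.

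Ligands of these receptors were read next. Counts of higher genes here and below stand beside 50.5% of all tested probe sets. Of 12 named matrix ligands of integrins that recognise RGD, the tripeptide of fibronectin, 11 were tested, 7 were higher in affected dogs and none passed at an adjusted p of 0.05, with a median log2 difference of 0.48. The 3 with the smallest p were FBN1 (0.95 ± 0.38, limma SE), the microfibril protein, THBS1 (1.34 ± 0.54), a matricellular protein, and FBN2 (-1.10 ± 0.46), a fibrillin of early tissue. Without control 2, FBN1 was at 0.58 and THBS1 at 0.74. FN1, fibronectin, the ligand of ITGA5, was named after its values were seen. Its 5 tested probe sets differed by 0.98 to 1.98 on the log2 scale. In 2 of them the groups did not overlap, beside 2.35% of all tested probe sets with affected dogs higher. Without control 2 the 5 differences were 0.20 to 1.29, and that of the brightest was 0.43 in place of 0.98. In the brightest, signals were 15855, 3606, 17491 and 16373 in controls and 25612, 28370, 17958 and 18884 in affected dogs, so that control 2 was far below all others and affected 1 and affected 2 were highest, as for ITGA5. Its other tested probe sets did not share that order: affected 4 led in 3 of them and affected 3 in the other, and control 2 was lowest in all 5.

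Ligands of leukocyte integrins were split. Of 6 tested, 4 were higher, 2 were lower and none passed at an adjusted p of 0.05. Their median log2 difference was 0.79, but it was 0.24 without control 2, 1.44 without control 3 and 1.40 without control 4. ICAM1, the endothelial ligand of ITGB2 integrins, had signals of 1432, 17.3, 342 and 751 in controls and 3621, 898, 2875 and 7233 in affected dogs. Control 2 was under the floor, affected 4 was highest and affected 2 was the lowest affected dog, with a difference of 3.10 ± 1.04 (log2, limma SE; adjusted p = 0.545) that was 2.00 without control 2. VCAM1, the endothelial ligand of lymphocyte integrins, differed by 1.63 ± 0.47 (adjusted p = 0.470) and the junctional protein JAM3 by -0.71 ± 0.33 (adjusted p = 0.645), which was -0.43 without affected 1 and reached 0.063 in another JAM3 probe set.

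Inside the cell, the general machinery of adhesion and the signalling genes of leukocytes differed in their values. Of 16 tested activators and adaptors (talins, the ILK complex, focal adhesion proteins and tetraspanins), 11 were higher and 5 lower, with a median log2 difference of 0.087 (0.031 without control 2, 0.18 without affected 2) and none past an adjusted p of 0.05. TLN1, which activates integrins at their beta tail, differed by 0.095 ± 0.22, the focal adhesion kinase PTK2 by 0.20 ± 0.27 and ILK by -0.17 ± 0.23, all named after their values were seen. By smallest p, the actin crosslinker FLNA differed by 0.92 ± 0.35 (adjusted p = 0.595), the parvin PARVB by 0.74 ± 0.31 (adjusted p = 0.614) and the ILK partner LIMS1 by -0.61 ± 0.32 (adjusted p = 0.666), the last at -0.38 without affected 1.

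Of the genes that carry signals from ITGB2 integrins in leukocytes, all 6 tested had higher means in affected dogs, beside 50.5% of all tested probe sets. Of these, 5 had an unadjusted p under 0.05, beside 4.02% of all tested probe sets with affected dogs higher, and none passed at an adjusted p of 0.05. The median log2 difference was 1.45, and 0.81 without affected 4. FCER1G, an adaptor that recruits the kinase SYK, differed by 2.91 ± 0.44 (log2, limma SE, adjusted p = 0.238). With 3 controls under the floor, its size depends on the floor (1.69 with a floor at the 40th percentile). In all controls FCER1G lay under the array's own 40th percentile. It passed the filter through the affected dogs alone, so its direction was fixed, and the counts and median above include it. TYROBP, the related adaptor, differed by 1.83 ± 0.56 (adjusted p = 0.494) and the GTPase RAC2 of blood cells by 1.77 ± 0.54 (adjusted p = 0.497). These genes are also markers of myeloid cells.

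Markers of macrophages followed ITGB2 and ITGAM over the dogs in part. Affected dogs had the higher mean in all 14 tested markers of macrophages and monocytes, beside 50.5% of all tested probe sets. The median log2 difference was 1.97 (1.11 without control 2), none past an adjusted p of 0.05. Their summed signal ran from 1958 to 22470 in controls and from 25328 to 51663 in affected dogs. MARCO, a scavenger receptor of macrophages, was under the floor in all 4 controls, and CD14 and FCGR1A were above it in at least 3. MARCO passed the filter through the affected dogs alone, so its direction was fixed, and the count of 14 and the median include it. Like ITGB2, the list was lowest in control 2 and its highest control was control 1, but its highest affected dog was affected 1. Of 4 tested pan-leukocyte markers, 3 were higher and 1 lower, with a median of 0.74 (0.35 without control 2) and summed signals, with 2 markers below the filter, from 7786 to 12400 in controls and from 6838 to 13341 in affected dogs. LAPTM5 and CD37 differed by 1.86 ± 0.65 and 1.04 ± 0.54, (1.19 and 0.42 without control 2), and LCP1 by -0.49 ± 0.26 in its brightest probe set and 0.50 ± 0.37 in the other. The part of a different number of leukocytes in the ITGB2 and ITGAM values was not tested.

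Lymphocyte, granulocyte and mast cell markers were few on the array. Of 4 tested T cell markers 3 were higher, with a median of 0.31 (0.12 without control 2, 0.50 without control 3), and their summed signals, with 2 markers below the filter, ran from 1019 to 1667 in controls and from 1252 to 1669 in affected dogs. CD3E, LCK and CD4 differed by 0.54 ± 0.33, 0.34 ± 0.38 and 0.27 ± 0.30, and LCK was at -0.044 without control 2. CD8A was under the floor in all 4 affected dogs and in 2 controls. Among 14 listed neutrophil markers 2 were named and 1 was tested, CXCR2 at 0.35 ± 0.38 (0.16 without control 4, 0.68 without affected 3), with summed signals from 200.3 to 313 in controls and from 130.1 to 457 in affected dogs. The 1 tested marker each of B and plasma cells (JCHAIN), NK cells (NKG7) and mast cells (MS4A2) differed by 0.28 ± 0.44, -0.16 ± 0.52 and 0.74 ± 0.37. JCHAIN was at -0.072 without affected 3, and NKG7 turned positive under 4 alternatives, to 0.31 without affected 3. PAX5 of B cells was under the floor in all 8 dogs.

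Set against leukocyte genes in the same dogs, the members moved by unequal amounts. After each dog's mean log2 signal over the 4 pan-leukocyte markers was subtracted, the affected minus control difference was 0.81 for ITGB2, 0.67 for the brighter ITGAM probe set, 1.08 and 0.93 for ITGA5 and -0.65 for ITGA2B. After the mean over the 14 macrophage markers was subtracted instead, the values were -0.55, -0.70, -0.29, -0.43 and -2.01. The values of ITGB2, ITGAM and ITGA5 against macrophage markers rest on control 2, whose macrophage mean was far below the rest. Without that dog the values were -0.087 for ITGB2, -0.23 for ITGAM and, with the sign turned, 0.37 and 0.42 for ITGA5. That of ITGA2B stayed negative, at -1.50. Those against pan-leukocyte markers kept their sign whichever dog was left out, positive for ITGB2, ITGAM and ITGA5 and negative for ITGA2B. Relative to pan-leukocyte markers the groups overlapped for ITGAM, ITGA5 and ITGA2B but not for ITGB2, at -0.49 to 0.44 in controls and 0.52 to 1.10 in affected dogs relative to the control mean. LCP1, 1 of the 4 markers, was lower in affected dogs in the probe set used (-0.49) but higher in its other (0.50). Its place in the list raises each of these differences, and the subtraction was not repeated without it. Overlap on this scale was not counted over all probe sets. Nothing is therefore read from the gap of ITGB2.

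Markers of endothelium, fibroblasts, smooth muscle and platelets were read beside ITGA5 and ITGA2B. All 7 tested endothelial markers had higher means in affected dogs, beside 50.5% of all tested probe sets. Their median log2 difference was 0.99, which was 0.57 with the median over all probe sets of a gene, and summed signals from 8590 to 12111 in controls and from 16246 to 28426 in affected dogs. NOS3, ENG and PECAM1 had the smallest p, at 1.07 ± 0.29, 1.27 ± 0.35 and 1.01 ± 0.34. Of 7 tested markers of fibroblasts and interstitial cells 6 were higher, with a median of 0.36 (-0.072 without control 2) and summed signals from 43821 to 125895 and from 96782 to 127118. By smallest p, VIM, POSTN and COL1A2 differed by 0.53, 1.81 and 0.36. Without control 2, POSTN was at 0.82 and COL1A2 at -0.072. Of 7 tested markers of smooth muscle and myofibroblasts 6 were higher, with a median of 0.48 (0.25 without affected 1, 0.80 without control 2) and summed signals from 22654 to 49382 and from 24078 to 62963. By smallest p in this list, ACTG2 differed by 1.09, MYLK, the 1 lower marker, by -0.91 and TAGLN by 0.48. As in ITGA5, affected 1 and affected 2 were the highest dogs in the mean of that list, but control 2 came next there. Among platelet markers 3 of 15 were named, ITGA2B among them, and GP1BA, a subunit of the receptor for von Willebrand factor, differed by 0.36 ± 0.46 (-0.0033 without control 2) with signals from 34.6 to 137 in controls and 74.9 to 125 in affected dogs. Summed platelet marker signals ran from 232 to 539 in controls and from 349 to 685 in affected dogs. That sum holds ITGA2B itself and ITGB3, which was below the filter, so it is no separate reading beside ITGA2B. The part of these cell types in the ITGA5 and ITGA2B values was not tested.

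**Figure D4:**
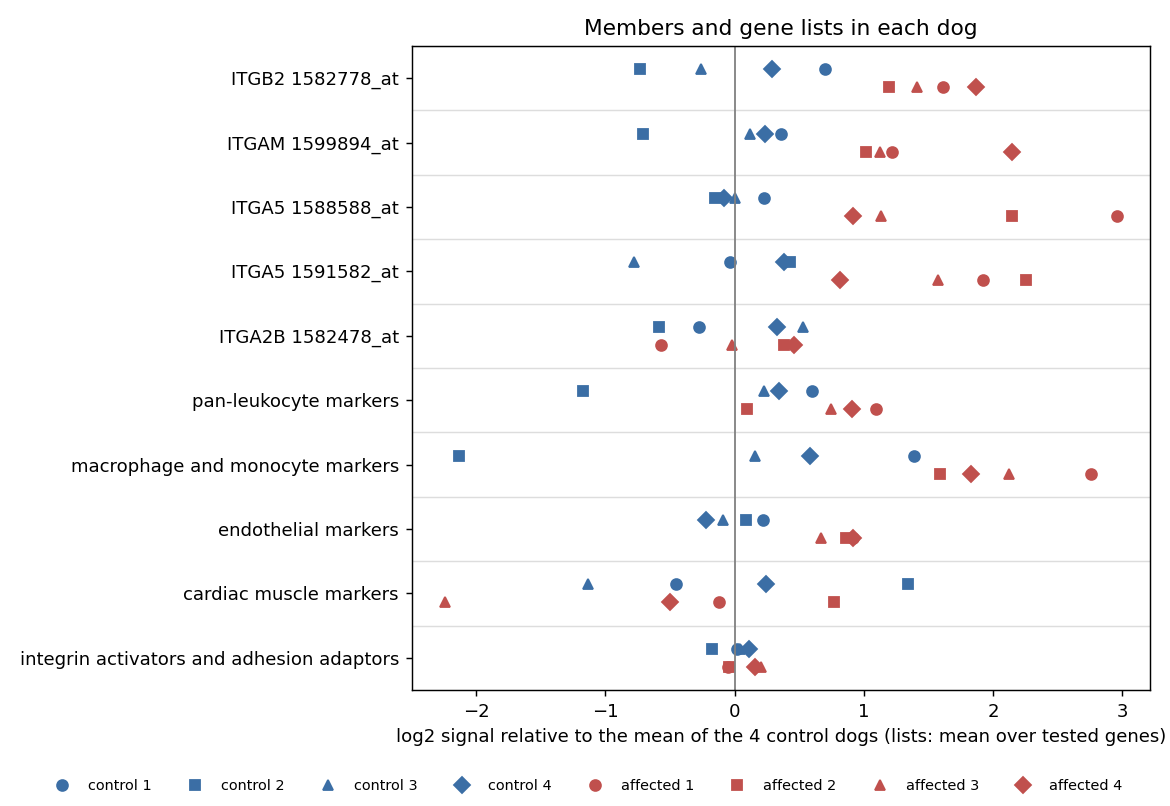
Log2 signal of each dog relative to the mean of the 4 controls, for the 5 member probe sets that passed the filter and for the mean over the tested genes of 5 lists. Control 2 is the lowest dog for ITGB2, ITGAM and both leukocyte lists, affected 1 and affected 2 are highest for ITGA5, and the list of integrin activators and adaptors stays between -0.17 and 0.21 in all 8 dogs.

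For each member the 5 genes with the most similar pattern were found by Pearson's r of log2 signal over the 8 dogs, among the brightest probe sets of 5438 genes. The dogs fall into 2 groups, so r carries the group difference, and r of the deviations from group means is given beside it, with no test. For ITGB2 the nearest were UPP1, an enzyme of uridine breakdown (r = 0.97, deviations 0.87), SLC43A2, an amino acid transporter (0.97, 0.92), the Fc receptor FCGR1A (0.97, 0.89), CYBB, the catalytic subunit of the phagocyte oxidase (0.97, 0.89), and SMPDL3A (0.96, 0.92). For ITGAM the nearest were FGR, a kinase of myeloid cells (0.97, 0.93), SMURF2, a ubiquitin ligase (0.97, 0.97), NABP1 (0.96, 0.96), ITGB2 itself (0.95, 0.82) and SLC5A6 (0.95, 0.83).

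ITGA5 had other neighbours. They were CD151, a tetraspanin that binds integrins (r = 0.97, deviations 0.90), C1H9orf3 (0.96, 0.91), the helicase DDX31 (0.96, 0.93), MED16 of the Mediator complex (0.96, 0.91) and ITIH1 (0.95, 0.87). The CD151 probe set had signals of 3788, 3767, 3744 and 3503 in controls and 5881, 4710, 4599 and 4144 in affected 1 to 4, the same order of affected dogs as the brighter ITGA5 probe set. Its difference was 0.37 ± 0.20 (log2, limma SE; adjusted p = 0.672), but the other 2 CD151 probe sets differed by 0.0078 and 0.076. For ITGA2B the nearest were EWSR1 (0.92, 0.92), TCFL5 (0.88, 0.91), GP1BA (0.88, 0.90), LOC606890 (0.87, 0.88) and SLC17A3 (0.87, 0.87). GP1BA is a platelet marker.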

How the data were processed

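Total RNA of 8 frozen leaflets was labelled by an Affymetrix 1-cycle protocol, with 1 array for each animal, per the labels. MAS5 made the linear intensity of each probe set that the authors deposited, per the submitters' processing notes. The MAS5 version and a genome build: not given in the sources used here. Arrays were already scaled alike (factors applied here from 0.999986 to 1.00001). MAS5 signals near background are imprecise, and a common scale assumes a like total signal.

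Gene names came from the platform annotation: 10549 of 23913 rows have 1 symbol, 138 several and 13226 none. All 4 member genes were found by gene identifier in a RefSeq table of dog. The floor and filter are as given above. Groups were compared with limma 3.58.1 in R 4.3.3 (lmFit, eBayes with a trend, two-sided) over all 14705 tested probe sets, tested on simulated data beforehand. Errors marked SE are limma's. Alternatives were other normalizations (quantile, median centring), floors, filters, moderation without a trend, array weights, a replicate block, the median over a gene's probe sets and leaving out each dog. The replicate dogs are biological, per the labels.

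Members, lists, tests and alternatives were chosen with earlier results of these data known. Named were all member probe sets, all other integrin subunits, the 3 genes with the smallest p of each list and the 5 most similar genes per member; a list used the brightest probe set per gene. FN1, TLN1, PTK2, ILK, DCN, CD8A and PAX5 are exceptions, named after their values were seen.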

Additional observations from a re-analysis of the deposited data

Results flagged for a closer look

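A dog far from the other 3 of its group (Dixon's ratio above its 95% critical value) was found 11 times in 122 groups of 4 dogs, over 61 probe sets. The nominal rate of about 1 in 20 is for independent groups of normal values. These groups share the same 8 arrays and many of the genes were picked by smallest p, so no excess is read from the count. None of the 11 was a probe set of ITGB2, ITGAM, ITGA5 or ITGA2B. All values are log2 signals. Control 2 was the outlying dog in 7 of them: high in ITGA7 at 11.38 (next control 9.74), ITGB6 at 9.19 (6.61) and the calcium release channel RYR2 at 12.34 (9.91), and low in THBS1 at 11.25 (13.42), RAC2 at 7.51 (8.70), the selectin SELE at 5.68 (8.33) and CD37 at 5.61 (7.89). Control 1 was high in FCER1G at 6.42, with the other controls at the floor of 5.10. Affected 3 was low in CXCR2 at 6.92 (8.13). Affected 2 was high in the sarcomere protein MYOZ2 at 12.55 (10.75) and in the lipase LPL at 9.81 (8.59).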

How the results depend on the processing

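The number of dogs, 4 per group, limits all differences. Over 18 alternatives each, the differences of ITGB2, the brighter ITGAM probe set and both ITGA5 probe sets kept their sign and stayed within 1.5 times their value; ITGA2B changed sign in 6 and the dim ITGAM probe set in 1. By more than the spread between dogs moved 0 of these 108 values, 24 of 417 list medians and 5 of 990 values of other named genes. Of 55 other named genes 9 changed sign at least once, as did 5 of 22 list medians. The labels state no pairing of dogs by replicate number. Deviations of same-numbered dogs correlated at -0.12, 0.41, 0.022 and -0.013, and whether the numbers mark anything shared was not tested. With the replicate block 4 probe sets were called in place of 0, none of them a member. Without 1 dog, 0 to 1 was called, the 1 without control 1. Leaving out dogs gave medians of 0.070 to 0.49 for other integrin subunits, 0.24 to 1.44 for ligands of leukocyte integrins and 0.81 to 1.63 for signalling from ITGB2 integrins. Chosen after seeing the data was subtraction of leukocyte markers: with pan-leukocyte markers ITGB2, ITGAM, ITGA5 (2 probe sets) and ITGA2B were at 0.81, 0.67, 1.08, 0.93 and -0.65, and with macrophage markers at -0.55, -0.70, -0.29, -0.43 and -2.01. With each dog left out in turn, both ITGA5 values against macrophage markers turned positive without control 2 (0.37 and 0.42) and no other value of the 10 changed sign.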

Other observations

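Molecules of leukocyte rolling and passage were read beside the integrins. Of 8 tested, 6 were higher in affected dogs, beside 50.5% of all tested probe sets, with a median log2 difference of 0.91 (0.41 with a stricter filter). Of the 6, 3 had an unadjusted p under 0.05, beside 4.02% of all tested probe sets with affected dogs higher, and none passed at an adjusted p of 0.05. SELPLG, the selectin ligand on leukocytes, had signals of 488, 103, 282 and 348 in controls and 822, 493, 937 and 752 in affected dogs, without overlap, and differed by 1.47 ± 0.45 (limma SE; adjusted p = 0.501). The endothelial selectin SELE differed by 2.51 ± 1.01 (adjusted p = 0.610), and by 1.51 without affected 4.

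The paired probe sets of ITGA5 kept their ratio less well in some dogs than in others. On the log2 scale, relative to the control mean, the brighter over the other ran from -0.58 to 0.78 in controls and from -0.44 to 1.04 in affected dogs, the highest in affected 1. In the RefSeq table ITGAX lies next to ITGAM on the chromosome, and it has no probe set of that symbol here.

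Heart muscle and fat markers had median log2 differences of -0.53 and -1.15 over 13 and 7 tested genes, none past an adjusted p of 0.05, and the heart muscle median was 0.14 without affected 3. By smallest p, MYOZ2, RYR2 and MYH7 of heart muscle differed by -1.16, -0.96 and -0.65, the last at -0.0037 without affected 3. Of the fat markers, CD36, SCD and LPL differed by -2.22, -1.15 and -1.70.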
